A study of Homo sapiens with 40 samples.

Results

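Genes of glycolysis and of the response to low oxygen were followed in LNCaP prostate cancer cells that were sensitive or resistant to the antiandrogen MDV3100. The set names 37 genes, 23 for glycolysis with its glucose and lactate transporters and 14 for hypoxia targets. They were grouped by role, and were chosen with earlier results of these data known. Each gene was read from its brightest probe set among those that the platform annotation pairs with that gene alone. For 35 of the 37 genes there was such a probe set, and SLC16A3 and CA9 are not analysed here. A filter on low signal passed 34 members, 21 of glycolysis and 13 hypoxia targets, of 11865 genes tested in all. The member below the filter was SLC2A3, a neuronal-type glucose transporter, with signals from 0.4 to 35.5 over the 40 arrays and a mean of 9.83.

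Glycolysis splits glucose into pyruvate in the cytosol, and lactate dehydrogenase can turn that pyruvate into lactate. When oxygen is short, the prolyl hydroxylases of the EGLN family stop marking hypoxia-inducible factors (HIF) for destruction, and these factors bind a short DNA core beside their targets, which include many glycolytic enzymes and EGLN3 itself. In prostate cancer cells the androgen receptor is known to act on some of the same genes, such as HK2 and PFKFB2.

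All cells were LNCaP, an established line from a lymph node metastasis of prostate cancer whose growth depends on androgen. The control group held 3 lines labelled sensitive to MDV3100. Control 1 carries the title D+E-, control 2 the title D+R- and control 3 the title M+R-, none of which a label explains. The resistant group held 7 clones, numbered 1, 9, 10, 14, 15, 19 and 24, and each clone is 1 derived line. Both groups grew in medium with 10% serum, were seeded 3 days ahead, and received for 24 h either 10 µM MDV3100, an androgen receptor antagonist also named enzalutamide, or 0.1% DMSO, its solvent. Each line had 1 array per treatment under each of 2 replicate numbers, which made 6 arrays of control lines and 14 of clones in DMSO and as many in MDV3100. No label calls the replicates separate cultures, so differences between the replicate numbers may be technical. Within a replicate number each line gave 1 array per treatment, so the p-values there reflect the variation among lines. Technical variation between arrays is part of it and cannot be told apart. In bulk RNA, fewer cells with a transcript and less of it per cell cannot be told apart.

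The arrays of replicate 1 and replicate 2 were analysed as separate sets, because arrays of one label did not resemble each other across them. A culture is here 1 line in 1 set, averaged over its treatments and taken relative to each gene's mean over the 20 cultures. Of these, 1 was matched best by its own label in the other set, and 16 had a correlation across genes below 0 with it (range -0.72 to 0.10). Taking out each gene's mean pushes such correlations below 0 wherever the sets differ. The replicate 2 culture labelled control 2 resembled clone 1 of replicate 1 most (r = 0.748), and that labelled clone 1 resembled clone 19 (r = 0.743). Counts for the levels of clones against control lines are therefore also given without control 2 and clone 1. That does not remove the doubt about labels. The replicate 1 cultures labelled clone 9, 10, 14, 15 and 24 were each matched best by control 3 of replicate 2 (r = 0.407 to 0.632). Whether labels were exchanged between cultures or sets cannot be told from these values, and every value of clones against control lines below rests on the labels as given. Luminal prostate markers had summed signals of 6280.2 to 17249.9 over 8 measured genes. The basal markers KRT5 and KRT14 summed to at most 29.9 and the leukocyte markers PTPRC and CD3E to at most 9.6, all 4 below the filter, while 1 of 4 fibroblast markers (COL1A1) and 1 of 3 endothelial markers (VWF) passed it. The ratio of 3' to 5' signal of the actin control, which rises as RNA degrades, was 5.12 ± 1.28 (SD, n = 3) in control MDV3100 arrays of replicate 1, with 6.59 in control 2, and group means elsewhere were 3.02 to 4.37.

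ANKRD37, EGLN3, PFKL, PFKFB4, BNIP3, PKLR and PFKM were called between clones and control lines in at least 1 test of replicate 2. ANKRD37 encodes an ankyrin repeat protein, EGLN3 the oxygen-sensing prolyl hydroxylase that hypoxia induces, PFKL the liver-type phosphofructokinase, PFKFB4 a bifunctional enzyme that sets fructose 2,6-bisphosphate, and BNIP3 a mitochondrial protein of mitophagy. The promoters of the first 5 are shown, each with 1 start in the table. PKLR has 2 starts and PFKM 7, and 1 promoter of each held a match to the motifs below. Each run is the 250 bases before the gene's start, 5′ to 3′ on the gene's strand, from RefSeq on GRCh38.p14, and capitals mark ACGTG and GCGTG on either strand.
ANKRD37, chr4:185396591-185396840, plus strand: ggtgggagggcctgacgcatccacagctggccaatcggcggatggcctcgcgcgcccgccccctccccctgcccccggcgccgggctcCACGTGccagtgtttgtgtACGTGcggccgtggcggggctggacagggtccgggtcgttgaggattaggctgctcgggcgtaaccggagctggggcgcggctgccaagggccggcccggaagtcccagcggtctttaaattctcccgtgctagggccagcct
BNIP3, chr10:131981924-131982173, minus strand: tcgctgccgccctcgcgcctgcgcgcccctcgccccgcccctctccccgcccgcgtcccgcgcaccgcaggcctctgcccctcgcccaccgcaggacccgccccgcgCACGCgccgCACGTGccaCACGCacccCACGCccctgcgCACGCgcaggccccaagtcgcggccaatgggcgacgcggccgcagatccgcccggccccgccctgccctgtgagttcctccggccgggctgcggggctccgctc
EGLN3, chr14:33951075-33951324, minus strand: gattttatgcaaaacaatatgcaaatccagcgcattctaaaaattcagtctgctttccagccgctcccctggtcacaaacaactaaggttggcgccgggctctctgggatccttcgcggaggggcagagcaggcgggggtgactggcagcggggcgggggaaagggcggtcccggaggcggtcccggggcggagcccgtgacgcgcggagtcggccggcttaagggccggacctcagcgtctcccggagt
PFKFB4, chr3:48556804-48557053, minus strand: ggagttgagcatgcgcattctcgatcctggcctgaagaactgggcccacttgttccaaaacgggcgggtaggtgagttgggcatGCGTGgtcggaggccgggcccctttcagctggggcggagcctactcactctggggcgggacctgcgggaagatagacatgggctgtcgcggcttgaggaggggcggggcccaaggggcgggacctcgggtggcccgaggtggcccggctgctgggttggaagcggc
PFKL, chr21:44299803-44300052, plus strand: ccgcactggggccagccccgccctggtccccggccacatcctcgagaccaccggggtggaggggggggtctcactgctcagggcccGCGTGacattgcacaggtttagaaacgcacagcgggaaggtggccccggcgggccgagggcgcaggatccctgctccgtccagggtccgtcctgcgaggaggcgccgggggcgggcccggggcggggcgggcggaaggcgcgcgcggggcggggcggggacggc
The ANKRD37 promoter held 3 matches, of which 2 overlap in the palindrome CACGTG, and the BNIP3 promoter held 6, with the same kind of overlap. PFKFB4 and PFKL held 1 GCGTG each and EGLN3 held 0, which says only that these letters are not in this window. Of 35116 promoters in the table, 43.2% held either motif and 18.5% held ACGTG. For the members, 33 genes with 63 promoters were in the table, and 58.7% of those promoters held either motif and 36.5% held ACGTG. A match is a description and not a binding site.

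Signals of the glycolytic members spanned a wide range, and levels of different genes are not compared because probe sets differ in brightness. Over all 40 arrays, GAPDH, the dehydrogenase in the middle of the pathway, gave signals of 2540 to 6532 (2539.5 at the lowest), ALDOA, its aldolase, 1878 to 5320.1, and LDHA, the main lactate dehydrogenase of glycolytic cells, 2515 to 3677. HK2, the hexokinase that commits glucose to the cell, gave 777 to 1646, and PFKM and PFKP, the muscle and platelet phosphofructokinases, 1162 to 2046 and 311 to 935. SLC2A1, the common glucose transporter, gave 80.8 to 226. Among the hypoxia targets, BNIP3 gave 988 to 1964, PDK1, a kinase that inhibits pyruvate dehydrogenase, 539.5 to 1338, and VEGFA, the vascular growth factor, 435 to 1260.1. ADM, the vasodilator peptide adrenomedullin, gave 6 to 35.1, with a mean of 19.1 near the filter at a signal of 12.1. Between the 10 lines in DMSO, the median member of glycolysis had an SD of 0.13 on the log2(signal + 16) scale in replicate 1 and 0.26 in replicate 2, and the median hypoxia target 0.18 and 0.28. The SD was smallest for PGAM1, a phosphoglycerate mutase, in replicate 1, whose 10 DMSO signals lay between 2487 and 2619.8.

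The response of no member to MDV3100 passed the test in the control lines, in either set. In replicate 1, 16 of 21 glycolysis members lay below 0 and 10 of 13 hypoxia targets above it, with median responses (MDV3100 minus DMSO, log2(signal + 16)) of -0.21 and 0.07 beside -0.01 for all genes. By line, the glycolysis medians were -0.28, -0.29 and 0.06 in control 1, 2 and 3. The hypoxia medians were 0.055, 0.20 and -0.11, so control 3 went the other way in both classes. In replicate 2 the median responses of glycolysis members and hypoxia targets were -0.02 and 0.14 beside 0.02. By limma with Benjamini-Hochberg adjustment, 0 of 34 members were called (adjusted p under 0.05) in either set, against 1.18% of all genes in replicate 1 and 0.118% in replicate 2. At an unadjusted p under 0.05 there were 6 members in replicate 1, against 15.1% of all genes, and 4 in replicate 2, against 9.06%.

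PDK1 had the lowest response among hypoxia targets of the control lines in replicate 1. Its DMSO signals were 1320.6, 1328 and 1338 in control 1, 2 and 3, and its MDV3100 signals 749, 982 and 904.5, so the treatments did not overlap. The response was -0.60 ± 0.17 (SE, n = 3; limma adjusted p = 0.122). In replicate 2 the same lines gave 991, 644 and 647 in DMSO and 831, 747 and 942 in MDV3100, with overlap and a lower value in 1 of 3 lines. PKLR, the liver and red cell pyruvate kinase, had 31.5, 16.3 and 34.8 in DMSO and 64, 41.2 and 44.9 in MDV3100 in replicate 1, without overlap, a response of 0.61 ± 0.18 that missed the test (adjusted p = 0.131). P4HA2, a collagen prolyl hydroxylase subunit, had 0.51 ± 0.17 (adjusted p = 0.192), and PFKFB2, the heart-type bifunctional enzyme, 0.52 ± 0.23 (adjusted p = 0.314).

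PFKFB2 showed how far 1 line moved these values. Its signal went from 143 to 284 in control 1 and from 137 to 277 in control 2, but from 160.5 to 129.8 in control 3. GAPDH split the same way, from 3618 to 2539.5 and from 4416 to 2747 in controls 1 and 2 and from 3767 to 4465 in control 3. Without control 3, 9 of 34 members were called in the replicate 1 control response, against 15.7% of all genes. They were GAPDH (-0.59), ALDOA (-0.64), PGAM1 (-0.54), HK1 (-0.69) and PDK1 (-0.62) below 0, and PFKFB2 (0.93), PKLR (0.79), P4HA2 (0.65) and MXI1 (0.59) above it. HK1 is the housekeeping hexokinase and MXI1 a MYC antagonist. The fit without control 3 rests on controls 1 and 2 alone, once the line that went the other way is out. Their agreement therefore gives no separate support for a response. Without control 1, or without control 2, the count was 0 (0.421% and 1.9% of all genes). The actin 3' to 5' ratio of control 2 was 3.18 in DMSO and 6.59 in MDV3100, of control 1 it was 4.08 and 4.26, and of control 3 it was 4.12 and 4.5, and the part of RNA quality in these values was not tested.

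In replicate 2 the widest control responses belonged to ANKRD37 and EGLN3, in opposite directions. ANKRD37 had DMSO signals of 262, 204 and 199.5 and MDV3100 signals of 127, 149.9 and 168 in control 1, 2 and 3, a response of -0.53 ± 0.16 with adjusted p = 0.301. EGLN3 had 59, 52.9 and 71.5 in DMSO and 86.7, 87.1 and 93.9 in MDV3100, a response of 0.45 ± 0.13 with adjusted p = 0.282. Neither gene's treatments overlapped, yet neither passed the test over all genes. ALDOC, the brain aldolase, had 0.28 ± 0.13 (adjusted p = 0.588) and PFKFB2 -0.23 ± 0.13 (adjusted p = 0.718). The count of members with 1 direction in all 3 lines was 5 higher and 8 lower in replicate 1, where 16.2% and 17.3% of all genes were, and 10 and 7 in replicate 2, where 16.2% and 12% were. Of these, PFKFB3 and PGK1 were lower and EGLN1, KDM3A and MXI1 higher in all control lines of both sets, which was noticed after their values were seen. Of all genes, 4.55% were lower and 5.18% higher in the same way. PFKFB3 is the inducible bifunctional enzyme, PGK1 a phosphoglycerate kinase, EGLN1 the main oxygen sensor and KDM3A a histone demethylase.

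**Figure D1:**
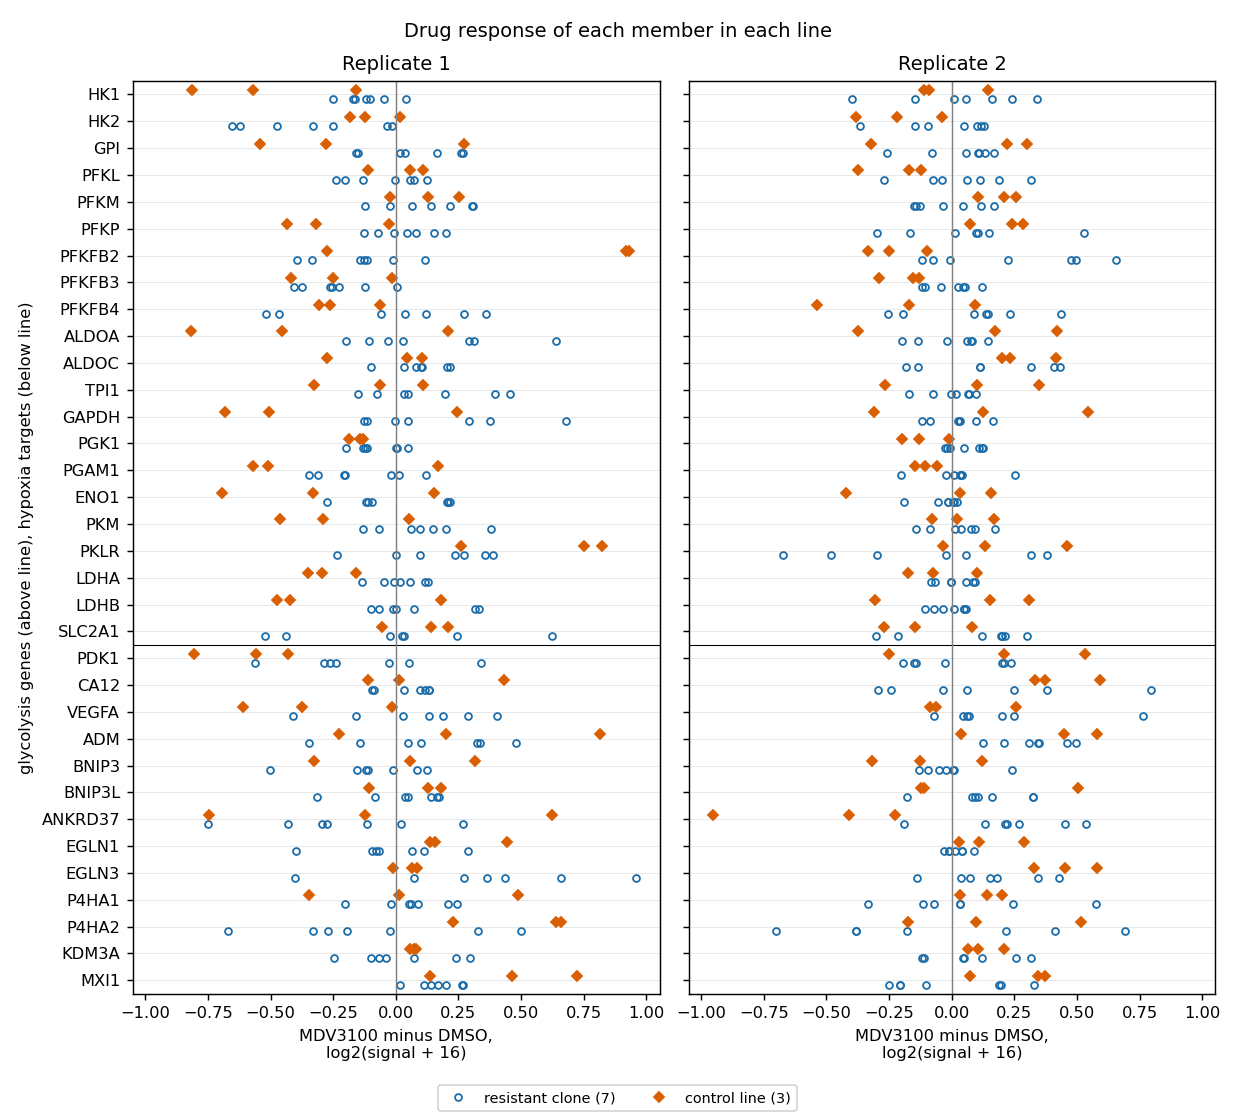
Drug response of each of the 34 tested members, as MDV3100 minus DMSO on the log2(signal + 16) scale, with 1 diamond per control line (3) and 1 open circle per clone (7) in each replicate set. In replicate 1 the PFKFB2 diamonds part into 2 lines near 0.9 and control 3 below 0, and in replicate 2 the 3 ANKRD37 diamonds lie below 0 while 6 of 7 clones lie above it.

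In the resistant clones, too, no member's response was called in either set. In replicate 1, 0 of 34 members passed the limma test against 1.89% of all genes, with 4 at an unadjusted p under 0.05 against 18.6%. In replicate 2, 0 of 34 passed against 0% of all genes, with 3 at an unadjusted p under 0.05 against 10.3%. The median member response was 0.02 in replicate 1 and 0.03 in replicate 2.

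HK2 came nearest to a call. Its clone signals in replicate 1 ran from 1225 to 1546 in DMSO (median 1290.5) and from 777 to 1480 in MDV3100 (median 1039.8; 1479.5 at the highest), so the groups overlapped while 7 of 7 clones were lower under the drug. The response was -0.34 ± 0.09 (SE, n = 7; limma adjusted p = 0.0711), and a fit with an intensity trend in the variance gave adjusted p = 0.0414. Its other probe sets did not follow it over the 40 arrays (r = -0.13 and 0.05). In replicate 2, HK2 ran from 1143 to 1620.3 in DMSO and from 940.1 to 1646 in MDV3100. PFKFB3 had -0.23 ± 0.07 (adjusted p = 0.0839) in replicate 1, EGLN3 0.34 ± 0.13 (adjusted p = 0.202) and ANKRD37 -0.23 ± 0.11 (adjusted p = 0.280). Members with 1 direction in all 7 clones were HK2, lower, and MXI1, higher, where 4.18% and 3.23% of all genes were.

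ADM was the one member higher in all 7 clones of replicate 2, where 1.47% of all genes were. Its signals ran from 6 to 25.5 in DMSO (median 20.2) and from 14.3 to 35.1 in MDV3100 (median 30.3), a response of 0.33 ± 0.06 (SE, n = 7; adjusted p = 0.196), close to the lowest signals that passed the filter. ANKRD37 had 0.23 ± 0.08 (adjusted p = 0.363), PFKFB2 0.24 ± 0.10 (adjusted p = 0.465) and ALDOC 0.15 ± 0.08 (adjusted p = 0.577).

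Whether clones and control lines differed in their response was tested on the 10 differences, 1 per line. By limma 0 of 34 members were called in replicate 1 against 0.00843% of all genes, and 0 in replicate 2 against 0%, while 11 and 3 members had an unadjusted p under 0.05 against 15.8% and 11%. In replicate 1 the largest in glycolysis were PFKFB2 at -0.67 ± 0.22 (adjusted p = 0.239) and ALDOA at 0.49 ± 0.22 (adjusted p = 0.30). The largest among hypoxia targets were P4HA2 at -0.60 ± 0.22 (adjusted p = 0.253) and PDK1 at 0.46 ± 0.18 (adjusted p = 0.266). The responses of clones and control lines did not overlap for LDHA, higher in clones of replicate 1, where 1.96% of all genes were so, and for PFKFB3 and ANKRD37, higher in clones of replicate 2, where 1.57% were. In replicate 1 without control 3, 7 members were called against 14.3% of all genes, with PFKFB2 at -1.07 and GAPDH at 0.76. Without control 1, or without control 2, the count there was 0 (0% and 0.00843%). In replicate 2, ANKRD37 stood at 0.76 ± 0.17 (adjusted p = 0.148), and without clone 1 at 0.83 with adjusted p = 0.0406. PFKFB2 had 0.46 ± 0.17 (adjusted p = 0.335) in that set, opposite to its sign in replicate 1. PFKFB4 had 0.29 ± 0.17 (adjusted p = 0.572) and CA12, a membrane carbonic anhydrase, -0.30 ± 0.20 (adjusted p = 0.647).

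In DMSO the levels of clones and control lines were compared within each set, and the members called in one set were not those called in the other. Relative to all genes (median 0.03), glycolysis members had a median difference of 0.05 (clones minus control lines) and hypoxia targets of -0.11 in replicate 1, and in replicate 2 of -0.19 and 0.08 beside -0.05. In replicate 1, PFKFB2 was higher and PFKP lower in clones. PFKFB2 had signals of 142.9, 137.4 and 160.5 in the control lines and of 200.7 to 244 in the clones (median 220.5), with no overlap. The difference was 0.55 ± 0.08 (SE; 7 clones, 3 control lines; limma adjusted p = 0.00648), and it was called in each of the 10 fits that left out 1 line. PFKP had 679, 814 and 743 in the control lines and 311 to 605 in the clones (median 474), a difference of -0.64 ± 0.16 with adjusted p = 0.0442 that missed the threshold in 7 of 10 such fits (0.0182 to 0.153). These 2 calls of 34 stand against 6.12% of all genes (3.64% higher and 2.48% lower). The count was 4 without clone 1 (12.3% of all genes called) or clone 19 (10.7%). It was 1 without control 1, 2 or 3 (0.86% to 1.03%), without clone 10 (2.69%) or 15 (2.05%), and without both control 2 and clone 1 (4.87%). Averaged over both sets by line, neither gene was called, with PFKFB2 at 0.15 (adjusted p = 0.541) and PFKP at -0.23 (adjusted p = 0.116). In replicate 2, PFKFB2 had 153 to 328 in the control lines against 128 to 289 in clones, and PFKP had 418 to 684 against 478 to 841.5, with overlap in both.

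SLC2A1 and PDK1 also parted the groups in replicate 1 without passing the test. SLC2A1 had 193.6, 186.5 and 172 in the control lines and 86.3 to 159.5 in the clones, a difference of -0.56 ± 0.15 (adjusted p = 0.0515). PDK1 had its 3 control signals of 1320.6 to 1338 and clone signals of 639.5 to 1138, a difference of -0.52 ± 0.15 (adjusted p = 0.0570). PKLR had 0.51 ± 0.17 (adjusted p = 0.0876) and CA12 -0.39 ± 0.28 (adjusted p = 0.408). Clones and control lines did not overlap for 2 members higher and 3 lower in clones, where 6.62% and 5.46% of all genes did not.

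In replicate 2, PFKL and PFKFB4 were lower in DMSO-treated clones, and PKLR and ANKRD37 higher. PFKL had 139.7, 154 and 127 in the control lines and 49.6 to 93.1 in the clones (median 51.4), with no overlap, and a difference of -1.05 ± 0.16 (SE; 7 clones, 3 control lines; limma adjusted p = 0.0114). In replicate 1 the same gene had 104.5 to 118.9 in the control lines and 112.5 to 160.1 in clones. PFKFB4 had 85.1, 84.4 and 75.2 in the control lines and 39.5 to 76.5 in the clones, where only clone 9 reached the control range, and a difference of -0.55 ± 0.15 (adjusted p = 0.0423).

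PKLR had 33.8, 36.5 and 31.3 in the control lines of replicate 2 and 51.1 to 79.4 in the clones (median 65.1), with no overlap, at low signals throughout. Its difference was 0.70 ± 0.12 (adjusted p = 0.0137), the same sign as in replicate 1. With both sets pooled as line means it was 0.61 (adjusted p = 0.0392), while that fit lost the calls of PFKL (-0.40, adjusted p = 0.0615), PFKFB4 (-0.19, adjusted p = 0.262) and ANKRD37 (0.33, adjusted p = 0.187). ANKRD37 had 262, 204 and 199.5 in the control lines and 252 to 425 in the clones (median 391.5), with clone 1 alone inside the control range, and a difference of 0.70 ± 0.16 (adjusted p = 0.0292). These 4 calls of 34 stand against 10.3% of all genes (3.92% higher and 6.39% lower). Without control 2, or without control 3, the limma count was 0 (0.0169% and 0.0674% of all genes). In these fits 8 and 7 members had an unadjusted p under 0.05, against 24.4% and 21.6% of all genes. Without clone 14, 15, 19 or 24 the limma count was 2 (1.54% to 2.11%). Without clone 1 it was 9 against 32.7% of all genes, with GAPDH, ALDOA, GPI, EGLN3 and ADM added. With control 2 and clone 1 left out together it was 5, against 18.6%. Of the members not called, GPI, the glucose phosphate isomerase, had -0.47 ± 0.17 (adjusted p = 0.0844), ALDOA -0.46 ± 0.18 (adjusted p = 0.0929), EGLN3 -0.56 ± 0.18 (adjusted p = 0.0607) and CA12 0.48 ± 0.17 (adjusted p = 0.0850). Groups did not overlap for 1 member higher and 4 lower, where 4.84% and 8.29% of all genes did not.

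Under MDV3100 the widest difference of any member was that of ANKRD37 in replicate 2. There the glycolysis members had a median of -0.21 beside -0.07 for all genes, and in replicate 1 they had 0.23 and the hypoxia targets -0.20 beside 0.05. Its signals were 127, 149.9 and 168 in the control lines and 219 to 577 in the clones (median 457), with no overlap, and clone 1 was lowest of the clones. The difference was 1.46 ± 0.25 (SE; 7 clones, 3 control lines; limma adjusted p = 0.0113). EGLN3 went the other way, with 86.7, 87.1 and 93.9 in the control lines and 33.4 to 62.2 in the clones (median 40.8), no overlap, and a difference of -0.87 ± 0.14 (adjusted p = 0.0104). Both genes are known HIF targets, and in these cultures they differed in opposite directions.

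PFKL had 104.1, 135 and 115.4 in the control lines and 46.2 to 102 in the clones under the drug, a difference of -0.78 ± 0.18 (adjusted p = 0.0225). PFKM had 1954, 1864 and 1652 against 1253 to 1675, with clone 1 alone overlapping, and -0.40 ± 0.13 (adjusted p = 0.0474). BNIP3 had 1146, 1306 and 1233 against 1353 to 1842 with no overlap, and 0.43 ± 0.13 (adjusted p = 0.0379), but its second probe set had -0.25 in the same comparison and the mean of both gave adjusted p = 0.643. These 5 calls of 34 stand against 19.6% of all genes (7.2% higher and 12.4% lower). Without control 3 the limma count was 0 (0.396% of all genes), with 10 members at an unadjusted p under 0.05 against 33.2%. It was 2 without control 1 (4.16%) or control 2 (2.04%), 3 without clone 10, 14, 15, 19 or 24 (7.37% to 14.4%), 8 without clone 1 (39.9%), and 5 without both control 2 and clone 1 (29.6%). Pooled by line over both sets, ANKRD37 kept its call (0.64, adjusted p = 0.0151), and EGLN3 (-0.34, 0.150), PFKL (-0.30, 0.112), PFKM (-0.07, 0.711) and BNIP3 (0.05, 0.767) lost theirs, with the adjusted p second. A limma fit of both sets with the replicate number as a block did not call ANKRD37 (0.64, adjusted p = 0.114). In replicate 1 alone the ANKRD37 difference had the opposite sign. GAPDH had -0.54 ± 0.20 (adjusted p = 0.0789), ALDOA -0.53 ± 0.21 (adjusted p = 0.0872), ADM 0.23 ± 0.20 (adjusted p = 0.411) and VEGFA 0.20 ± 0.17 (adjusted p = 0.375). Groups did not overlap for 4 members higher and 2 lower, where 5.38% and 9.54% of all genes did not.

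In replicate 1 under MDV3100, 0 of 34 members were called by limma against 9% of all genes, and 6 had an unadjusted p under 0.05 against 31.5%. P4HA2 had 280.7, 315 and 179.8 in the control lines and 86.2 to 232 in the clones, with overlap, and a difference of -0.83 ± 0.26 (adjusted p = 0.0599). SLC2A1 had -0.66 ± 0.23 (adjusted p = 0.0763), ALDOA 0.65 ± 0.23 (adjusted p = 0.0828) and CA12 -0.45 ± 0.29 (adjusted p = 0.301). Without control 3 the count was 7 against 25.3% of all genes, with GAPDH at 0.80, ALDOA at 0.93 and P4HA2 at -1.06. It was 1 without clone 9 (8.91%) or clone 19 (10.4%). The count was 0 without control 1 (1.45%), without control 2 (0.75%), and without both control 2 and clone 1 (0.674%). Only SLC2A1 had no overlap in that comparison, lower in clones as 3.89% of all genes were. In replicate 2 the sign was the opposite, with 159.6, 150.2 and 137.5 in the control lines and 164.7 to 211 in the clones under MDV3100, again without overlap (0.29 ± 0.11, adjusted p = 0.0775). In DMSO 10 of 34 members had the same sign of difference in both sets, where 40.7% of all genes did, and in MDV3100 7 of 34, where 36% did. No member was called in both sets in either treatment.

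**Figure D2:**
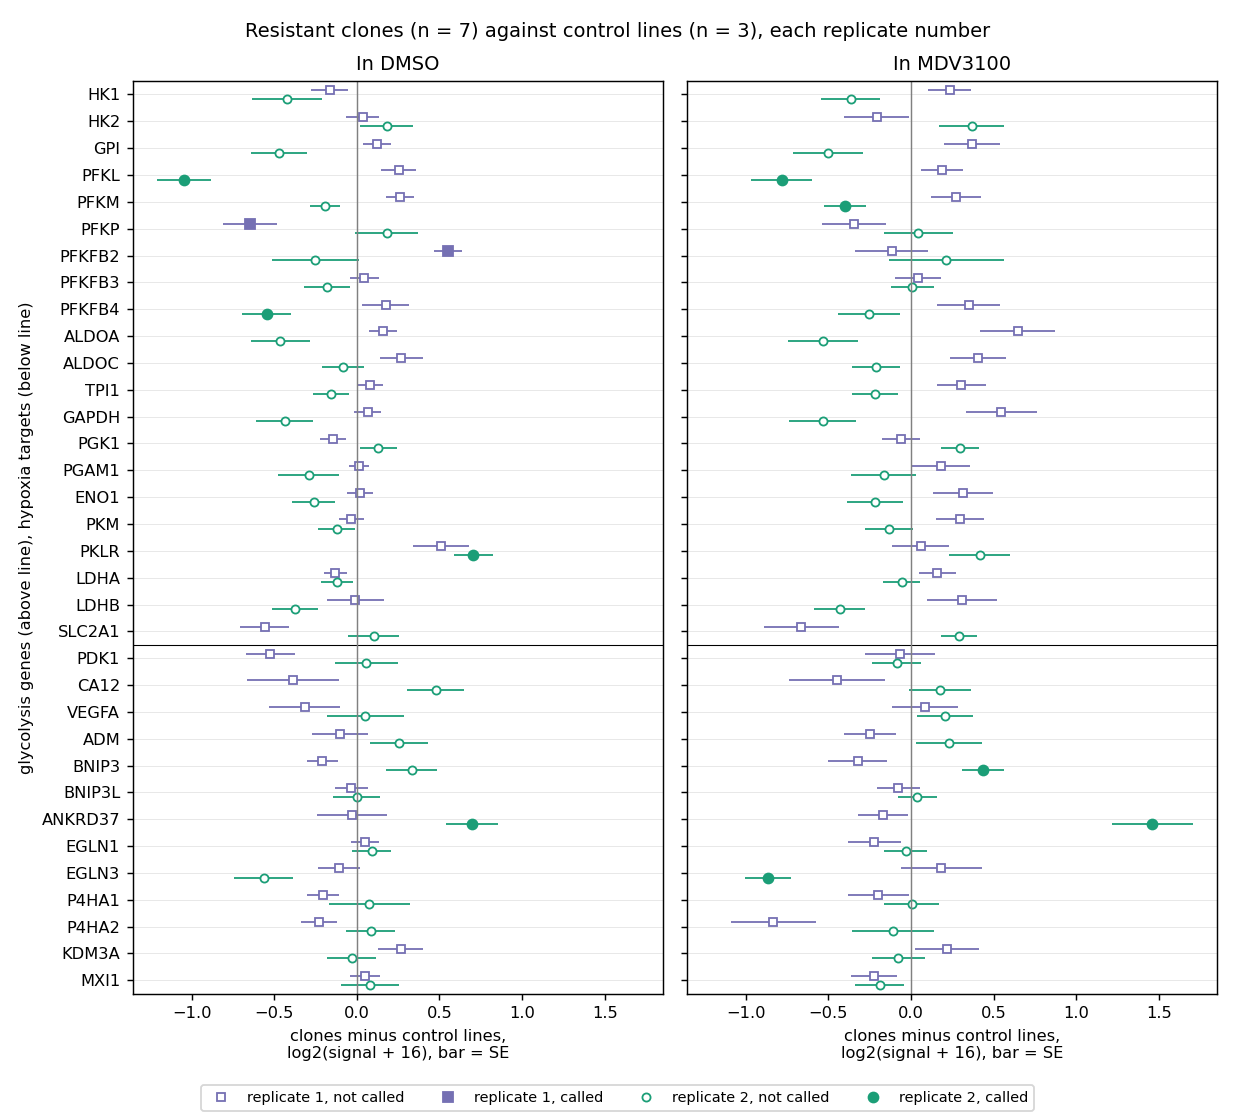
Difference between the 7 clones and the 3 control lines for each tested member on the log2(signal + 16) scale, in DMSO (left) and MDV3100 (right), with bars of 1 SE, squares for replicate 1 and circles for replicate 2. Filled symbols mark the called members, 2 and 4 in DMSO and 0 and 5 in MDV3100, and many members lie on opposite sides of 0 in the 2 sets.

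**Figure D3:**
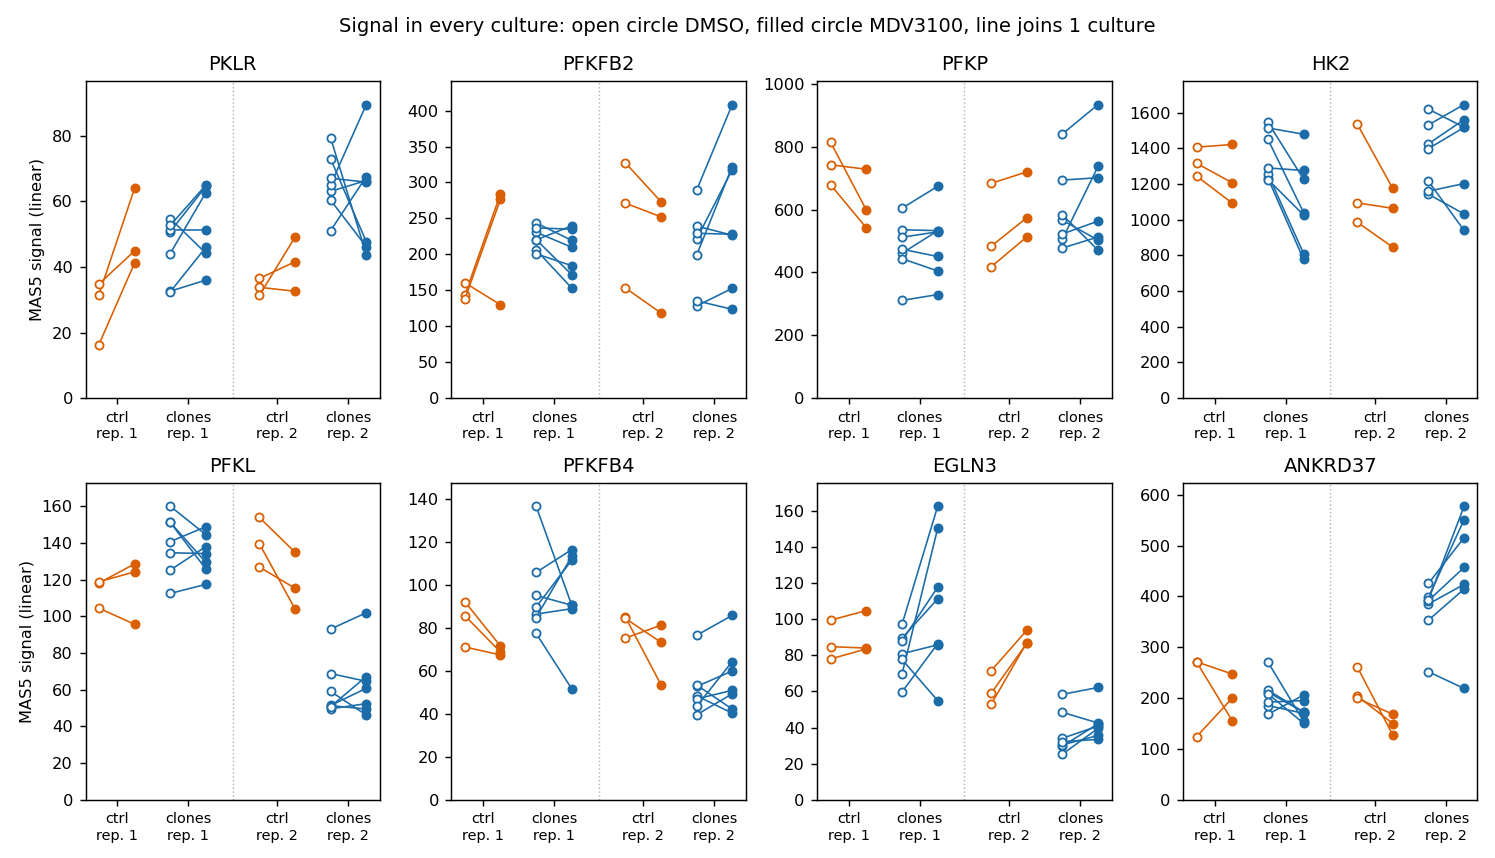
MAS5 signal (linear) of 8 members in every culture, control lines in orange and clones in blue, with DMSO as open and MDV3100 as filled circles joined for each line. ANKRD37 lies above 200 in all replicate 2 clones under both treatments, while PFKL and EGLN3 of the same clones lie below nearly all other cultures.

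Within replicate 2, some glycolytic enzymes set 4 clones apart from the other 3, a pattern chosen after the values were seen and given without a test. How many of all genes part these clones in the same way was not counted. The counts for glycolysis and for hypoxia targets therefore cannot be called particular to these members. Of 21 glycolysis members, 7 were lower in all of clones 14, 15, 19 and 24 than in any of clones 1, 9 and 10 under both treatments, 1 (HK2) was higher, and the rest overlapped in at least 1 treatment. The 7 were GPI, ALDOA, TPI1, GAPDH, PGAM1, ENO1 and PKM. GAPDH had DMSO signals of 3157, 2815, 2599.7 and 2925 in clones 14, 15, 19 and 24, against 4182.5, 4158 and 4126 in clones 1, 9 and 10 and 4241 to 5116 in the control lines. ALDOA had 2257 to 2579.6 in those 4 clones and 3321 to 3572 in the other 3, and GPI 1586 to 1859 and 2257 to 2612. All 3 genes kept this order under MDV3100, where GAPDH was 2651.5 to 3154 in the 4 clones and 4204 to 4451 in the other 3. These values rest on the brightest probe set of each gene. For ALDOA, another probe set ran opposite to it over all arrays (r = -0.73) and a further one followed it (r = 0.995). The order of the clones in either was not counted.

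ENO1, an enolase, and PGAM1 followed, with DMSO signals of 1902 to 1972 and 1759.6 to 2348 in the 4 clones against 2437 to 2507.5 and 2818 to 2987 in the other 3. LDHA did not part them, at 2974 to 3344 and 3033 to 3433.5. Of 13 hypoxia targets, BNIP3, EGLN1 and P4HA1, a collagen prolyl hydroxylase subunit, were higher in the 4 clones under both treatments, and VEGFA was lower. BNIP3 had 1836 to 1964 in the 4 clones and 1342 to 1541 in the other 3, and P4HA1 had 913 to 1287 and 527 to 714. The second BNIP3 probe set ran opposite to the one used over all arrays (r = -0.66), so the BNIP3 order rests on 1 probe set. In replicate 1 the same 4 clones had GAPDH signals of 3923 to 4521 in DMSO, within or above the 3618 to 4416 of the control lines. The actin 3' to 5' ratio over all 7 clones of replicate 2 ranged from 2.59 to 3.71, and its part in this pattern was not tested.

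**Figure D4:**
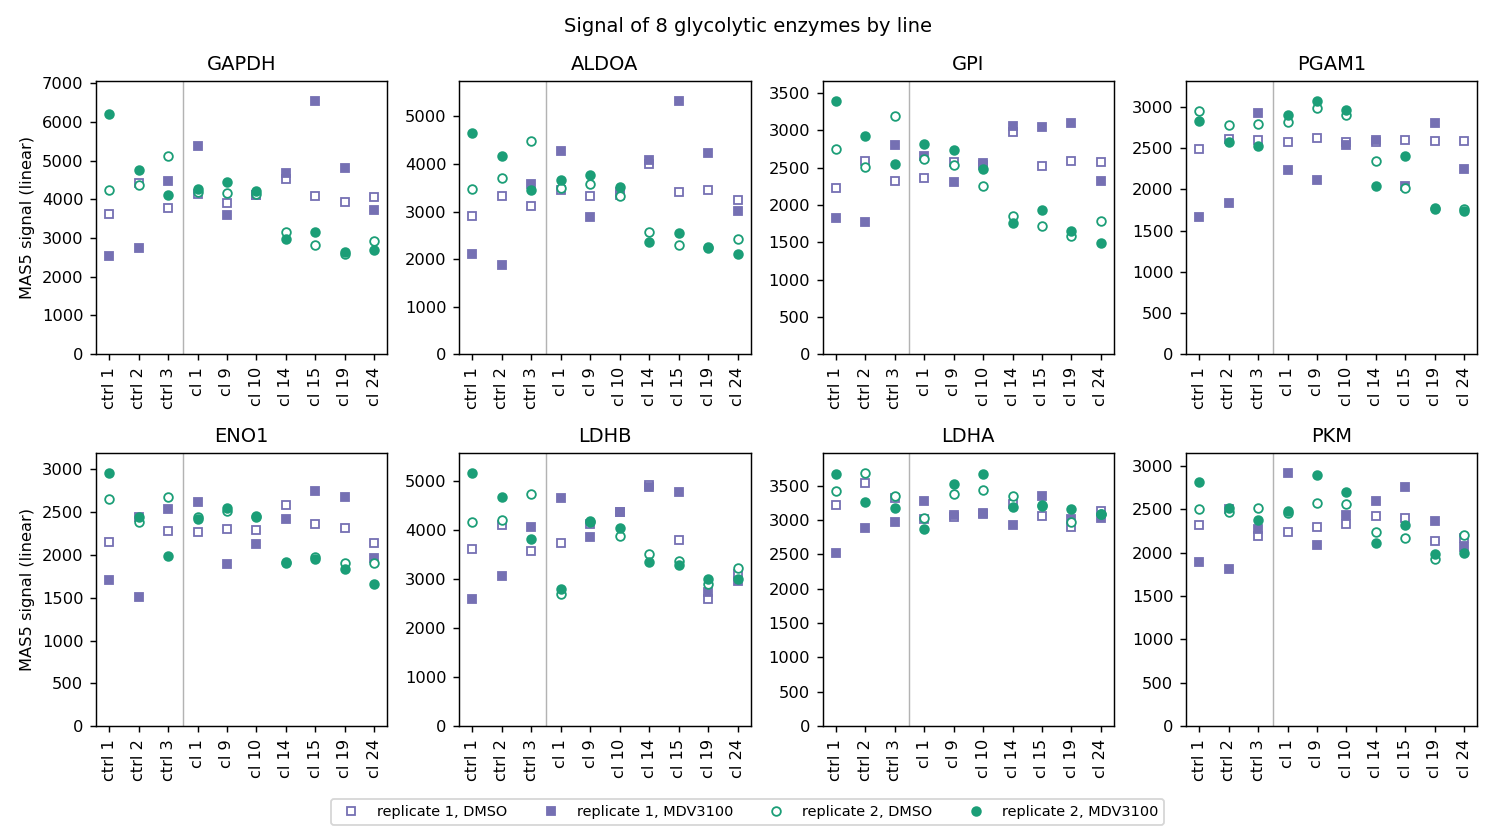
MAS5 signal (linear) of 8 glycolytic enzymes in each line, with squares for replicate 1, circles for replicate 2, open for DMSO and filled for MDV3100. In replicate 2, clones 14, 15, 19 and 24 lie below clones 1, 9 and 10 for GAPDH, ALDOA, GPI, PGAM1 and ENO1, and in replicate 1 controls 1 and 2 under MDV3100 lie low.

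Levels also differed between the sets themselves, which hold the same labels and so are no comparison of conditions. Over 10 lines, each averaged over its treatments, 6 of 34 members were called by limma, against 26.3% of all genes (9.7% higher and 16.6% lower). EGLN3 (-0.75 ± 0.14, adjusted p = 0.00504), PFKL (-0.65 ± 0.18, adjusted p = 0.0209), PFKFB4 (-0.48 ± 0.12, adjusted p = 0.0175), KDM3A (-0.35 ± 0.11, adjusted p = 0.0324) and BNIP3L (-0.22 ± 0.07, adjusted p = 0.0398) were lower in replicate 2, and ANKRD37 (0.67 ± 0.19, adjusted p = 0.0237) was higher. BNIP3L is a mitophagy receptor related to BNIP3. EGLN3 ran from 54.9 to 162.6 over the 20 arrays of replicate 1 and from 25.3 to 93.9 over those of replicate 2. Without clone 1 the count was 9 (28.3% of all genes), without clone 9, 10, 15 or 19 it was 3 (15.5% to 18.0%), and without clone 14 or clone 24 it was 2 (16.6% and 15.0%). No member had 1 direction in all 10 lines, as 7.16% of all genes had, and EGLN3, PFKL and BNIP3L were lower in 9 of 10. Members not called included MXI1 (-0.25 ± 0.09, adjusted p = 0.0512), P4HA2 (-0.36 ± 0.14, adjusted p = 0.0782), ALDOC (-0.24 ± 0.10, adjusted p = 0.0941) and SLC2A1 (0.29 ± 0.14, adjusted p = 0.128).

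Other probe sets of the same genes were set beside those used. For EGLN3, PFKL and GAPDH they ran alike over the 40 arrays (r = 0.90, 0.85 and 0.99), and the second PFKL probe set had -0.70 in DMSO in replicate 2 against -1.05. For PFKFB2, the other probe sets correlated at r = 0.16 and 0.28, with replicate 1 DMSO differences of 0.40 and 0.11 against 0.55. The 2 BNIP3 probe sets ran opposite (r = -0.66), as did 1 ALDOA probe set (r = -0.73), so statements on BNIP3 rest on 1 probe set. For PGK1, 4 other probe sets with mean signals of 846 to 1207 had differences of 0.38 to 0.63 in DMSO in replicate 2, against 0.13 for the one used.

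Neighbouring genes of the pathway, from lists that were not part of the set, are counted beside shares of all genes in the drug responses. The shares called were 1.18% and 0.118% in control lines and 1.89% and 0% in clones, of replicates 1 and 2. At an unadjusted p under 0.05 the shares were 15.1%, 9.06%, 18.6% and 10.3% in the same order. Of 8 tested HIF regulators, 0 were called by limma in any of the 4 responses (3, 1, 0 and 2 at an unadjusted p under 0.05), and of 22 tested genes of the branch and pyruvate routes 1 was called in the control lines of replicate 1 and 1 in the clones of replicate 1. Both were MPC2, a subunit of the mitochondrial pyruvate carrier, at -0.82 ± 0.17 (limma adjusted p = 0.0431) and -0.43 ± 0.09 (adjusted p = 0.0431). INSIG2, a sterol sensor partner, was the 1 call among 13 other hypoxia targets, at 0.40 ± 0.09 in the clones of replicate 1 (adjusted p = 0.0489), and 0 of 5 other isozymes were called in any response (0, 1, 1 and 3 at an unadjusted p under 0.05).

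Between clones and control lines, several of these genes changed sign from set to set. PYGL, the liver glycogen phosphorylase, was higher in clones of replicate 1 (1.40 ± 0.36 in DMSO, adjusted p = 0.0451, and 1.69 ± 0.33 in MDV3100, adjusted p = 0.0148) and lower in those of replicate 2 under MDV3100 (-0.99 ± 0.30, adjusted p = 0.0409). DLAT, a subunit of pyruvate dehydrogenase, was lower in replicate 1 (-0.91 ± 0.20 in MDV3100, adjusted p = 0.0242) and higher in replicate 2 (0.81 ± 0.19, adjusted p = 0.0226). ENO3, the muscle enolase, was higher in replicate 1 under MDV3100 (0.76 ± 0.18, adjusted p = 0.0289) and lower in replicate 2 (-0.75 ± 0.23, adjusted p = 0.0449). EPAS1, which encodes HIF-2α, was lower in replicate 2 clones in DMSO (-0.87 ± 0.19, adjusted p = 0.0280) and MDV3100 (-1.08 ± 0.26, adjusted p = 0.0227). In the same set HILPDA, a lipid droplet protein induced by hypoxia, was higher (0.93 ± 0.26, adjusted p = 0.0450, and 1.01 ± 0.30, adjusted p = 0.0403), as was MPC1, the partner of MPC2 (0.53 ± 0.11, adjusted p = 0.0253, and 0.57 ± 0.12, adjusted p = 0.0195).

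The share of all genes called was 6.12% and 10.3% in DMSO and 9% and 19.6% in MDV3100, in replicates 1 and 2, which is the background for the counts below. By list, replicate 1 clones in DMSO had 1 call higher (SLC2A12, a glucose transporter, 0.62) among 5 other isozymes, 1 lower (BHLHE40, a repressor, -0.65) among 13 other hypoxia targets, and 1 higher and 1 lower (PYGL and DLAT, -0.51) among 22 genes of the branch and pyruvate routes. Replicate 2 clones in DMSO had 1 lower HIF regulator of 8 (EPAS1), 1 higher other hypoxia target (HILPDA), and 1 higher and 1 lower gene of the routes (MPC1 and the glycogen synthase GYS1, -0.72). Under MDV3100, replicate 1 had 1 higher isozyme (ENO3) and 2 higher and 1 lower gene of the routes (PYGL, PGLS of the pentose phosphate branch at 0.43, and DLAT). Replicate 2 under MDV3100 had 2 lower HIF regulators (EPAS1 and ARNT2, -0.56), and 3 higher and 1 lower other hypoxia targets. Those were PLOD2, a collagen lysyl hydroxylase (1.58 ± 0.39, adjusted p = 0.0244), HILPDA and WSB1 (0.67) above, and DDIT4, an inhibitor of mTORC1 (-0.71), below. The routes had 3 higher (DLAT, MPC1 and the phosphoglucomutase PGM2, 0.67) and 3 lower (PYGL, GYS1, -0.73, and PGLS, -0.72), and ENO3 was the 1 lower isozyme.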

How the data were processed

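LNCaP RNA was hybridised to 40 Affymetrix arrays, and the authors deposited MAS5 signal intensity per probe set, per the submitters' processing notes (version not given in the sources used here). The mean of every array after trimming 2% at each end was 150, so the deposited intensity values were already scaled and were not normalized again. All columns were matched to samples by their labels. The deposited intensities were converted to log2(signal + 16), which understates changes of dim genes. From 54675 probe sets, 62 control probe sets and those with a mean under log2 4.813 (signal 12.1) were left out, and 27307 stayed. The brightest probe set named for 1 gene stood for it (41097 had 1 gene, 1801 several, 11777 none). Tests were made with limma 3.58.1 in R 4.3.3, per replicate set, with Benjamini-Hochberg adjustment over 11865 genes and a call at adjusted p under 0.05. Drug responses were fitted with the line as a block. The pairing comes from the titles (same line and replicate number), and over 20 such pairs deviations from group means correlated at r = 0.255 to 0.912. The code was tested on simulated data. Promoters were read from RefSeq tables. The named genes are called members, up to 10 each way, and the 2 largest uncalled in each class, with exceptions stated. Members, lists and tests were chosen with earlier results of these data known. Alternatives were the pseudocount, filter, quantile normalization, mean of probe sets, intensity trend, pooled sets, and leaving out each line. Leaving out control 2 and clone 1 together was added after seeing the data. The number of arrays limits precision.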

Additional observations from a re-analysis of the deposited data

Results flagged for a closer look

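In groups of 7 clones, a single clone stood far from the other 6 (a gap above Dixon's 95% critical share of the range) in 14 of 204 groups looked at, where chance gives about 1 in 20. In replicate 2, clone 1 was lowest for ADM in DMSO (6, next 19.6) and for ANKRD37 in DMSO (251.8, next 353) and MDV3100 (218.8, next 414), and highest for EGLN3 in MDV3100 (62.2, next 42.5). In replicate 1, clone 14 was highest in DMSO for GPI (2975.2), ALDOA (4007.9) and GAPDH (4521.3), and lowest for VEGFA in MDV3100 (525.9). Clone 19 was highest for VEGFA in DMSO (1260.1, next 783) and lowest for PFKFB4 in MDV3100 (51.6, next 88.9) in replicate 1. Clone 9 was highest for PGAM1 in DMSO (2619.8, next 2594), in a group whose lowest signal was 2576.4. Among drug responses in replicate 2, VEGFA was 0.77 in clone 19 (next 0.25), BNIP3 0.24 in clone 10 (next 0.01), and ENO1 -0.19 in clone 24 (next -0.06).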

How the results depend on the processing

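The counts of called members depended on single lines and on pooling. Leaving out 1 line at a time gave 0 to 9 members in the replicate 1 control response (9 without control 3), 0 in the replicate 2 control response and both clone responses, 0 to 7 and 0 to 1 in the difference of responses of replicates 1 and 2, 1 to 4 and 0 to 9 for clones against control lines in DMSO, 0 to 7 and 0 to 8 in MDV3100, and 2 to 9 between the sets. Fits without a line have fewer arrays. At the highest count the share of all genes called was 15.7% in the replicate 1 control response, and 14.3% and 0.742% in the difference of responses. For DMSO levels it was 12.3% or 10.7% in replicate 1 (without clone 1 or clone 19) and 32.7% in replicate 2. For MDV3100 levels it was 25.3% and 39.9%, and between the sets 28.3%. For clones against control lines in DMSO of replicate 1, the main count was 2 (6.12% of all genes). It was 1 with a pseudocount of 1 (5.28%) and with no filter (2.65%). It was also 1 without control 2 and clone 1 (4.87%), a setting chosen after seeing the data. The count was 4 with the mean of probe sets (6.82%) and with an intensity trend (7.35%). The replicate 1 clone response had 1 call with the mean of probe sets (CA12, against 2.98% of all genes) and 1 with the trend (HK2, against 2.88%). With both sets pooled as line means, the control response had 1 call, PKLR (0.40, limma adjusted p = 0.0294), against 6.05% of all genes. DMSO levels had 1 against 0.118% and MDV3100 levels 2 against 8.93%. With both sets and a replicate block, DMSO levels had 1 call, PKLR (0.61, limma adjusted p = 0.0119), against 1.8% of all genes. MDV3100 levels had 0 against 3.72%, where replicate 2 alone had 5 against 19.6%. The pooled fits turned the sign of PFKFB2 in the replicate 2 control response (0.15) and difference of responses (-0.10), of ANKRD37 in the replicate 1 clone response (0.0043), of CA12 in replicate 1 DMSO levels (0.0453), and of GAPDH (0.0043), ALDOA (0.0558) and ADM (-0.0109) in replicate 2 MDV3100 levels, by line means and with the replicate block alike, as their construction averages sets of opposite sign. Without control 3, ADM in MDV3100 of replicate 2 was -0.0202 (up to 0.38 without control 2). Signals near the filter, as of ADM and PKLR, limit how far their differences can be read.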
